A study of Mus musculus with 2 samples.

Results

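To learn how the genes of the Notch pathway responded to pharmacological activation of WNT signaling in the early ureter, the probes of 10 genes were followed on the arrays. These were the receptor genes Notch1, Notch2, Notch3 and Notch4, the ligand genes Jag1, Jag2, Dll1 and Dll4, and the target genes Hes1 and Hey1. The 10 genes were set with earlier results of these data known, and their probes were found by gene name, which gave 13 probes out of 29875 genes with 39429 probes on the array. The ureters came from wildtype NMRI mouse embryos of stage E12.5 and were cultured as explants without serum for 18 h. The BIO group received 10 µM BIO, an inhibitor of the kinase GSK3 that is used to switch on canonical WNT signaling, and the control group received only DMSO, the solvent, at 2:1000. The sex of the embryos was not determined. Each RNA came from a pool of whole ureters, so that epithelium, mesenchyme, vessels and any blood or nerve cells were measured together. Both RNAs of a replicate were hybridized to 1 array, and there were 2 arrays with exchanged dyes. BIO RNA was red in replicate 1 and green in replicate 2, so that replicate and dye cannot be told apart.

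Notch receptors are activated by ligands of the Jagged and Delta-like families that sit on a neighboring cell. The bound receptor is cut by ADAM proteases and then by gamma-secretase, and its intracellular domain joins the DNA-binding protein RBPJ and a Mastermind coactivator in the nucleus to switch on genes such as those of the Hes and Hey repressors. In developing vessels, DLL4 and NOTCH4 are found in endothelial cells, where the pathway restrains sprouting and favors arterial fate, and NOTCH3 is the receptor best known from pericytes and vascular smooth muscle. In the ureter, Notch signaling takes part in smooth muscle and urothelial differentiation.

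Expression of 7 of the 10 genes was reduced in BIO, 0 rose and 3 were not called, which were Notch1, Notch2 and Notch3. With the value table that the authors deposited in place of the scanner values, 1 gene fell, Dll1, and 1 rose, Notch3. The other 6 kept their direction with adjusted p from 0.126 to 0.229. The share of all genes called with that table is not given here, so a general loss of calls cannot be told apart. Of the 28824 probes tested, 22.0% had the same deposited score on both arrays and so no spread between arrays. Dll1 (-0.49) and Notch3 (0.38) had the same adjusted p of 0.0342, while Dll4 at -2.05 was not called. Whether the equal scores shaped these calls was not tested. A gene was called when its adjusted p was below 0.05 in a limma fit of both arrays, with Benjamini-Hochberg adjustment over all 28824 probes tested, and each gene was represented by its brightest probe. Among all 21574 genes tested, 14.8% fell and 9.13% rose. The 7 genes that fell were Hey1, Notch4, Dll4, Jag2, Hes1, Jag1 and Dll1. The median log2 ratio of BIO over control across the 10 genes was -0.65, and it was -0.82 in replicate 1 and -0.52 in replicate 2. Across all genes tested the median was -0.01. By the rule the study states for its other arrays, at least 2-fold the same way on both arrays with a signal of at least 100, 4 of the 10 genes were lower in BIO, against 2.04% of all genes tested. These 4 genes were Notch4, Jag2, Dll4 and Hey1. Being bulk RNA, the arrays cannot tell fewer cells of a type from less RNA per cell.

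**Figure D1:**
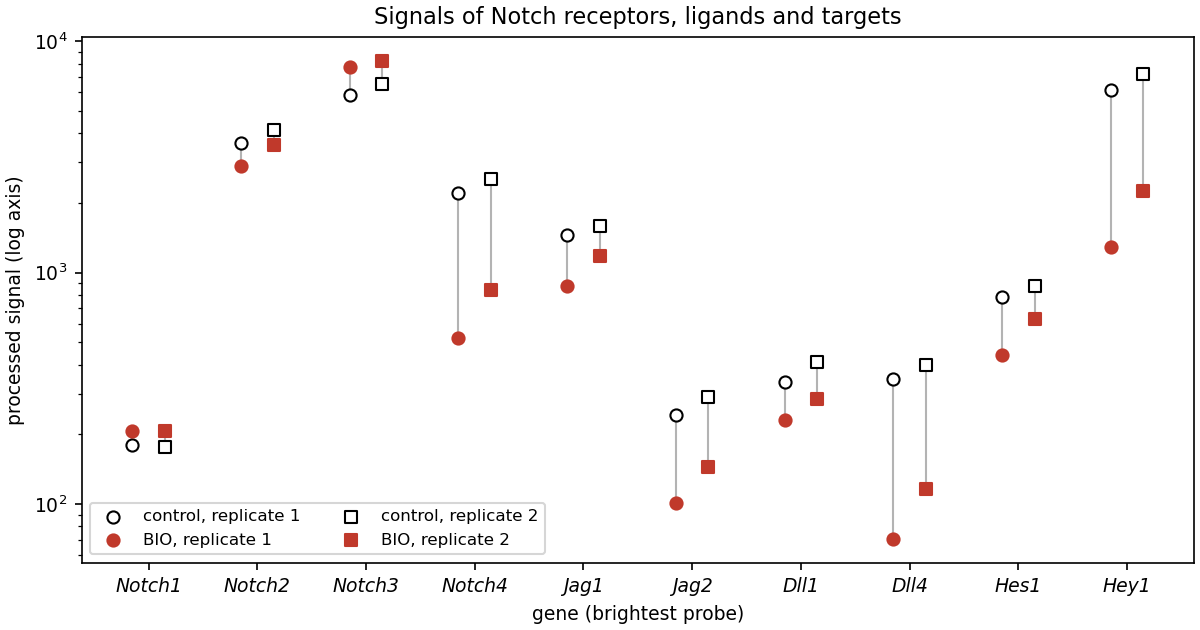
Processed signal on a log axis of the brightest probe of each gene, for control (open symbols) and BIO (filled symbols) in replicate 1 (circles) and replicate 2 (squares). A gray line joins both channels of an array, and heights compare only within a gene. BIO lies below control on both arrays for 8 genes and above it on both for Notch1 and Notch3. By normalized ratios, 8228 of all 21574 genes tested also lay below 0 on both arrays.

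The stretches around the start sites of 3 of these genes are shown, for the receptor and the ligand with the largest falls and for the receptor with the highest ratio. They run from 250 bases before to 50 bases after the start, were taken from RefSeq (GRCm38.p6), and are written 5′ to 3′ on the strand of the gene. Capitals mark matches to 2 motifs, ETS (AGGAAG) and AP-1 (TGANTCA).
Notch4, chr17:34564045-34564344, plus strand: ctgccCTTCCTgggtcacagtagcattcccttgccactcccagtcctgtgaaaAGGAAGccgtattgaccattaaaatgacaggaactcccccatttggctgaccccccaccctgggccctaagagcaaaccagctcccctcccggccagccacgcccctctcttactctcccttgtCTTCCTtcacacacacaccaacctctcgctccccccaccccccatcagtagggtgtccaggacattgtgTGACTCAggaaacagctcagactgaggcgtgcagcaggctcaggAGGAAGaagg
Dll4, chr2:119325534-119325833, plus strand: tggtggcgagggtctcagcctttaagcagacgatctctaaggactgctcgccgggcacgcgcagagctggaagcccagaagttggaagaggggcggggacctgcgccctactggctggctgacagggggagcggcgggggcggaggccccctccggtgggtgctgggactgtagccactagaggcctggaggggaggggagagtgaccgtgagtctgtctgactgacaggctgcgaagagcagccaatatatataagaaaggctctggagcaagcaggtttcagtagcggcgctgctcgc
Notch3, chr17:32166841-32167140, minus strand: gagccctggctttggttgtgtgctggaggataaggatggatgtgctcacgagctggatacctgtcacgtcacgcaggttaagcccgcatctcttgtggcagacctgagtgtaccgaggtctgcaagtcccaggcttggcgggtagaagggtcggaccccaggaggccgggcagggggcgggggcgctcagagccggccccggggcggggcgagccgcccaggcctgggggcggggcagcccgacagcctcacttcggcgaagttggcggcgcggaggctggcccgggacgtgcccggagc
The Notch4 stretch held an AP-1 match that began 4 bases before the start, and ETS matches that began 245, 197 and 73 bases before it and 40 bases after it. No match to either motif was found in the stretches of Dll4 and Notch3.

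RefSeq stretches were at hand for 8 of the 10 genes, with 9 stretches in all, since Dll1 had 2 of them. Hes1 and Hey1 had none there. Both strands were searched. ETS was found in stretches of 2 genes, Dll1 and Notch4, and in 35.35% of all 32851 such stretches. AP-1 was found in stretches of the same 2 genes and in 7.81% of all. The Dll1 matches lay in different stretches, with ETS 14 and AP-1 109 bases before the respective start. The RBPJ motif GTGGGAA, present in 6.38% of all stretches, was in 0 of the 9. The TCF/LEF motifs CTTTGAA and CTTTGAT, which differ in their last letter and occurred in 5.14% and 3.73% of all, were each in 0 of the 9. So was the Hes and Hey type E-box CACGTG, found in 7.15% of all. These are matches of letters in a short window and say nothing about binding. The 9 stretches were rich in G and C, from 55.7% in Jag1 to 86.0% in Jag2, against a median of 52.7% over all.

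Among the receptors, Notch4 was the only gene called at its brightest probe. Its probe (NM_010929, mm9 chr17:34725120-34725179) had a processed signal of 2206 in control and 522 in BIO in replicate 1, and of 2543 and 841 in replicate 2. Control was above BIO on both arrays and the groups did not overlap. How many of all genes had no such overlap is not given here or for the genes below. The log2 ratio was -2.04 and -1.64, with a mean of -1.84 ± 0.13, a 3.58-fold lower level with an adjusted p of 8.94e-05. Here and below, ± gives the moderated SE of the limma fit (n = 2 arrays), which borrows spread from all tested probes. It is not the SE of the 2 array ratios alone. Of all genes tested, 0.524% had a lower mean ratio.

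Notch3 (NM_008716, mm9 chr17:32257848-32257907) had signals of 5855 in control and 7725 in BIO in replicate 1, and of 6499 and 8230 in replicate 2. BIO was above control on both arrays, with nearly equal log2 ratios of 0.33 and 0.35. The mean was 0.34 ± 0.11 and the adjusted p 0.0525, so that this receptor was just short of the threshold. Notch3 was read by 1 probe, so averaging the probes of a gene left its ratio at 0.34. Only the fit and the adjustment over all genes changed, and the adjusted p was 0.0383. With the channels fitted as separate samples, which drops their pairing on an array, the ratio was again 0.34 and the adjusted p 0.0325. With the deposited value table the adjusted p was 0.0342. Under these alternatives Notch3 was called as risen. Under the other 6 alternatives with a test it was not called, with adjusted p from 0.0518 without the filter on dim probes to 0.325 with median centering. Among all genes tested, 89.6% had a lower ratio.

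Notch2, a broadly expressed receptor, was measured by 2 probes. The brighter (NM_010928, mm9 chr3:97953914-97953973) had signals of 3625 in control and 2886 in BIO in replicate 1, and of 4141 and 3564 in replicate 2. BIO was the lower channel on both arrays. The mean log2 ratio was -0.31 ± 0.11 with an adjusted p of 0.0793, and the gene was not called. The further probe (mm9 chr3:97951233-97951292) was dim, with signals of 26.7 and 30.7 in replicate 1 and 37.3 and 25.7 in replicate 2. Its log2 ratios of 0.03 and -0.27 had opposite signs and its adjusted p was 0.543.

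The 2 probes of Notch1, the receptor required for vascular and many other Notch functions in the embryo, disagreed. Both carry the identifier NM_008714, and their starts lie 4810 bases apart on chromosome 2. The brighter probe (mm9 chr2:26319440-26319499) had signals of 180 in control and 207 in BIO in replicate 1, and of 177 and 206 in replicate 2. Its mean log2 ratio was 0.09 ± 0.11 with an adjusted p of 0.587. The further probe (mm9 chr2:26314630-26314689) had signals of 199 in control and 133 in BIO in replicate 1, and of 234 and 124 in replicate 2. Here BIO was below control on both arrays, with log2 ratios of -0.61 and -0.82, a mean of -0.72 ± 0.11 and an adjusted p of 0.00311. Which probe stands for Notch1 therefore decides its call, and with the further probe 8 of the 10 genes fell. The brighter probe was chosen by its mean log2 intensity over both channels. In control alone the further probe had the higher signal on both arrays, so that the choice depended on the BIO signals too. With all tested probes averaged, Notch1 had a mean log2 ratio of -0.31 and an adjusted p of 0.0559. From each 60-base probe a window of 30 bases is shown, with a stretch of A and G in capitals, because the probes differ in composition.
Brighter Notch1 probe, bases 29 to 58: gcaacagtGAAGAAGAAGAAGAtgcacctg
Further Notch1 probe, bases 13 to 42: aaaatcGAAAAGAAAGAAAAAAGAAcgtga
G and C made up 55% of the brighter probe and 40% of the further probe, and the longest run of A and G was 14 and 19 bases. Whether composition or position in the transcript bears on the disagreement was not tested.

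All 4 ligands fell, and Dll4 by the most. DLL4, the endothelial ligand of tip cells and arteries, was read by a probe (NM_019454, mm9 chr2:119160779-119160838) with signals of 347 in control and 70.6 in BIO in replicate 1, and of 399 and 117 in replicate 2. The higher BIO signal was below the lower control signal. Its log2 ratios of -2.04 and -1.63 gave a mean of -1.83 ± 0.13, a 3.56-fold lower level with an adjusted p of 9.35e-05. Ratios of Dll4 and Notch4 thus lay within 1 SE of each other, and those of Hey1 (-1.96 ± 0.15) and of the further pathway gene Mfng (-1.95 ± 0.20) were similar.

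Jag2 (NM_010588, mm9 chr12:114146887-114146946) had signals of 242 in control and 101 in BIO in replicate 1, and of 289 and 144 in replicate 2. The mean log2 ratio was -1.07 ± 0.12, a 2.10-fold lower level with an adjusted p of 0.000519. The groups did not overlap, and 2.43% of all genes tested had a lower ratio. Jag1, a ligand of endothelium, smooth muscle and epithelia (NM_013822, mm9 chr2:136907433-136907492), had signals of 1447 in control and 875 in BIO in replicate 1, and of 1590 and 1174 in replicate 2. Again both control signals were above both BIO signals. Its mean log2 ratio was -0.62 ± 0.12, a 1.54-fold lower level with an adjusted p of 0.0087.

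Dll1, a ligand of many progenitor tissues (NM_007865, mm9 chr17:15504623-15504682), had signals of 336 in control and 231 in BIO in replicate 1, and of 412 and 284 in replicate 2. Its mean log2 ratio was -0.57 ± 0.11, a 1.49-fold lower level with an adjusted p of 0.00726. Of the 7 genes that fell, Dll1 had the smallest change. A further Dll1 probe, made to the transcript ENSMUST00000143460 (mm9 chr17:15513726-15513785), was not well above background in either channel of either array and was not tested.

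Both target genes fell. Hey1, which encodes a repressor induced by Notch in endothelial and smooth muscle cells, was read by a probe (NM_010423, mm9 chr3:8663432-8663491) with signals of 6141 in control and 1292 in BIO in replicate 1, and of 7180 and 2261 in replicate 2. BIO was far below control on both arrays. The log2 ratios of -2.25 and -1.67 gave a mean of -1.96 ± 0.15, a 3.90-fold lower level with an adjusted p of 0.000123. This was the lowest ratio of the 10 genes, and 0.403% of all genes tested had a lower one.

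Hes1, the widely used Notch target that keeps progenitors undifferentiated (NM_008235, mm9 chr16:30067820-30067879), had signals of 782 in control and 438 in BIO in replicate 1, and of 875 and 627 in replicate 2. The groups did not overlap. Its mean log2 ratio was -0.69 ± 0.12, a 1.61-fold lower level with an adjusted p of 0.00519. The 2 targets thus differed in the size of their fall, and the log2 ratios of Hes1 on the arrays, -0.86 and -0.53, were both above those of Hey1. That difference between genes was not tested.

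**Figure D2:**
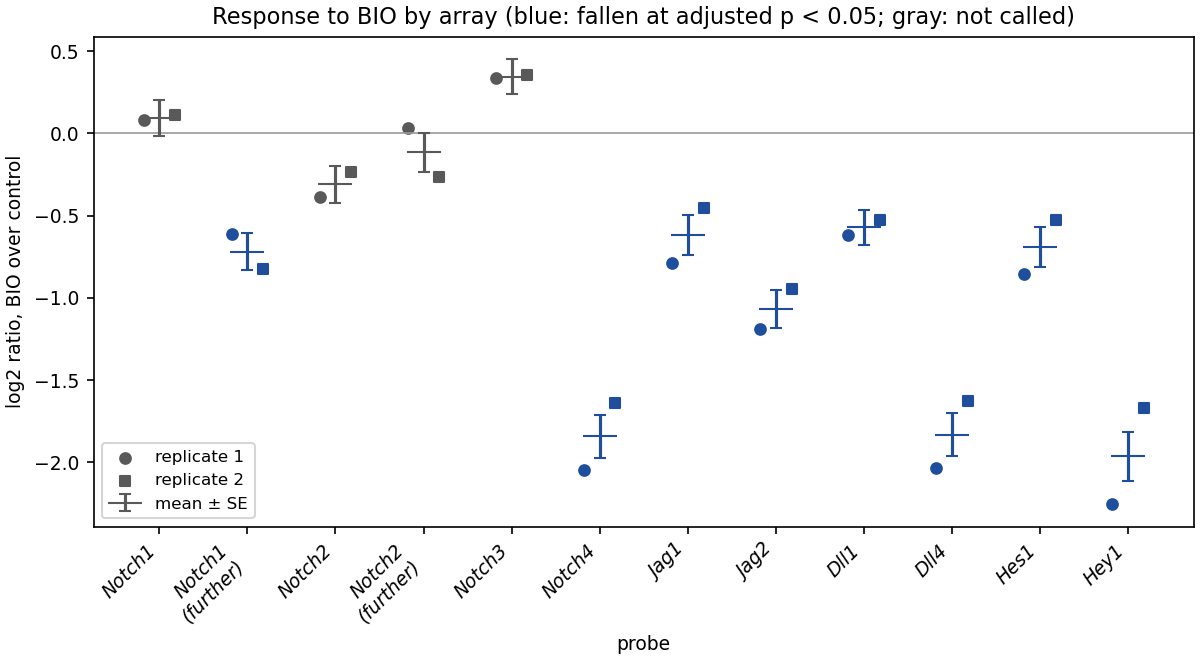
Log2 ratio of BIO over control for the 12 tested probes of the 10 genes. Replicate 1 is shown as circles and replicate 2 as squares, with the mean and its moderated SE. Hey1, Notch4 and Dll4 lie lowest, between -2.25 and -1.63 on the arrays, Jag2 is next at -1.19 and -0.94, and the 2 Notch1 probes lie on opposite sides of 0.

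Ordered by ratio, the genes lay in groups. Hey1, Notch4 and Dll4 had overlapping ranges between the arrays. Jag2 followed, without overlap on either side. Hes1, Jag1 and Dll1 overlapped again. At their brightest probes, the ratios of Notch2, Notch1 and Notch3 lay above these. The further Notch1 probe, at -0.61 and -0.82, lay within the range of Hes1, Jag1 and Dll1. In all 7 genes that fell, the ratio was lower in replicate 1 than in replicate 2. The SD over the spots of a probe on 1 array, at most 4 spots, ranged from 0.0084 for Hey1 to 0.16 for Dll1 on the log2 scale, both in replicate 1.

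Of 50 further Notch pathway genes listed by function, 49 were on the array and 48 were tested, of which 3 rose, 10 fell and 35 were not called. Among all genes tested 14.8% fell and 9.13% rose, and the counts by role below stand beside the same shares. The median log2 ratio of the 48 genes was -0.13. Aph1c had no probe, and Hes3 was not well above background.

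Of 7 other targets tested, 3 fell. Nrarp, a feedback inhibitor that is induced by Notch and destabilizes the intracellular domain, had signals of 841 in control and 142 in BIO in replicate 1, and of 984 and 235 in replicate 2. Its mean log2 ratio of -2.23 ± 0.14 (adjusted p 5.29e-05) was below that of each of the 10 genes. Heyl, a Hey family repressor of smooth muscle and pericytes, had a mean log2 ratio of -1.07 ± 0.12 (adjusted p 0.000581). Hey2, the family member of arteries and heart, had log2 ratios of -0.01 and -0.35 and was not called (adjusted p 0.339).

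Of the 3 other ligands, 2 fell, including Dlk1, a ligand-like protein without the domain that activates the receptor, with a mean log2 ratio of -1.34 ± 0.15 at its brightest probe. Its further probe gave -1.25. Of 14 processing and glycosylation genes, 4 fell. Mfng and Lfng encode Fringe enzymes, which add sugars to the receptors and tune their response to Delta-like against Jagged ligands. Mfng had signals of 3870 in control and 738 in BIO in replicate 1, and of 4335 and 1580 in replicate 2. Its mean log2 ratio was -1.95 ± 0.20 (adjusted p 0.000394), and its further probe gave -1.62. Lfng had -0.77 ± 0.13 (adjusted p 0.00478). Furin, the protease of the first receptor cleavage, had -0.69 ± 0.12 (adjusted p 0.00587).

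In the nucleus, Rbpj, the DNA-binding partner of every receptor, had log2 ratios of -0.08 and 0.33 at its brightest probe, a mean of 0.12 ± 0.13 and an adjusted p of 0.545. Its further probe had a mean of -0.09. Of 9 nuclear genes 1 rose, the coactivator gene Maml2, with a mean log2 ratio of 0.59 ± 0.15 (adjusted p 0.0254). Of 15 genes of endocytosis and turnover, 2 rose and 1 fell. The risen genes were Dtx3l, a ubiquitin ligase gene, with 0.81 ± 0.18, and Fbxw7, whose product marks the intracellular domain for degradation, with 0.53 ± 0.12. Of 2 further Dtx3l probes, 1 rose (0.46, adjusted p 0.0196) and 1 was not called (0.31, adjusted p 0.0756). The further probes of Fbxw7 (0.28, adjusted p 0.149) and Maml2 (0.08, adjusted p 0.672) were not called. That Maml2 probe was dim, with signals of 10.4 in control and 15.8 in BIO in replicate 1, and of 11.7 and 9.95 in replicate 2.

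**Figure D3:**
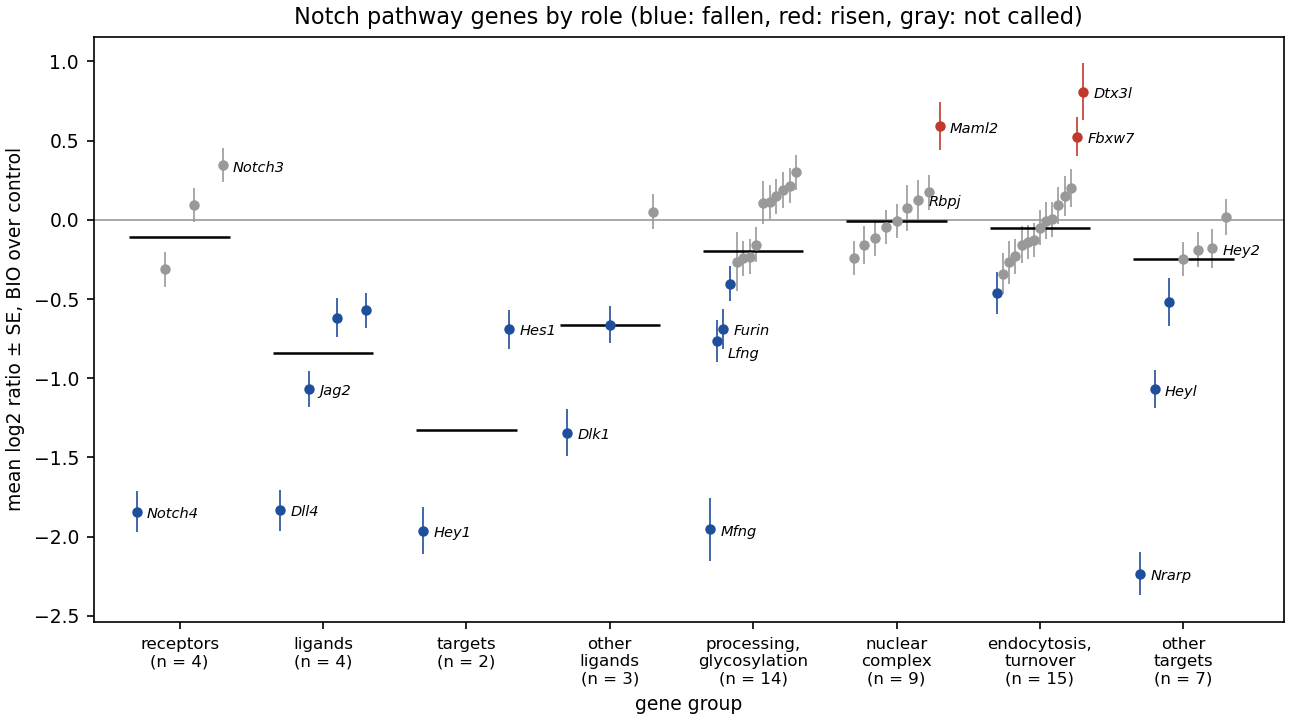
Mean log2 ratio of BIO over control ± moderated SE (n = 2 arrays), each gene by its brightest probe. Shown are the 10 genes (receptors, ligands, targets) and 48 other Notch pathway genes by role. A black line marks the median of a group. Blue genes fell, red genes rose and gray genes were not called, and the lowest ratios are those of Nrarp at -2.23, Hey1 at -1.96 and Mfng at -1.95.

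Most markers of vessel cells fell, and so did most of those of epithelium and mesenchyme, with medians of -0.90 and -0.67. Among all genes tested 14.8% fell. All 12 endothelial markers fell, with a median log2 ratio of -1.98 and a range from -2.63 to -0.95. Kdr, a VEGF receptor gene, had -2.63 ± 0.20 and Cdh5, the cadherin gene of endothelial junctions, -2.32 ± 0.22. The summed signal of the 12 was 35248 in control and 6809 in BIO in replicate 1, and 42637 and 12790 in replicate 2. These sums were 5.18-fold and 3.33-fold lower in BIO, so that the change was larger in replicate 1, as for the venous and smooth muscle sums below. The arterial sums (1.76-fold and 1.85-fold lower) and the mural sums (1.66-fold and 2.01-fold lower) changed more in replicate 2. Of 8 arterial markers 6 fell (median -0.75), among them Efnb2 (-0.68) and Unc5b (-0.81), with sums of 39470 and 22376 in replicate 1 and of 43553 and 23480 in replicate 2. Their log2 ratios ranged from -2.48 to 0.07, and Sox17 (-2.48), Gja5 (-2.36) and Gja4 (-2.11), named after their values were seen, lay within the range of the endothelial markers. Of 4 venous markers 3 fell (median -0.83), with sums of 18322 and 12520, and of 21462 and 16356. Nr2f2 had -0.52, while Ephb4 had 0.00 and was not called.

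Of 8 mural cell markers 6 fell (median -0.92), with sums of 34156 in control and 20598 in BIO in replicate 1 and of 36824 and 18349 in replicate 2. Pdgfrb, the receptor gene of pericytes and other mesenchyme, had -2.17 ± 0.15, and Mcam had -0.30 and was not called (adjusted p 0.121). Of 6 smooth muscle markers 5 fell (median -0.76), including Acta2 (-1.63) and Tagln (-0.99), with sums of 12499 and 5392, and of 13007 and 5930. No marker of these 5 lists was untested for lack of signal. Notch3, the mural receptor, was not called in the same RNA in which 6 of the 8 mural and 5 of the 6 smooth muscle markers fell. The part of the marker changes in those of the Notch genes was not tested.

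**Figure D4:**
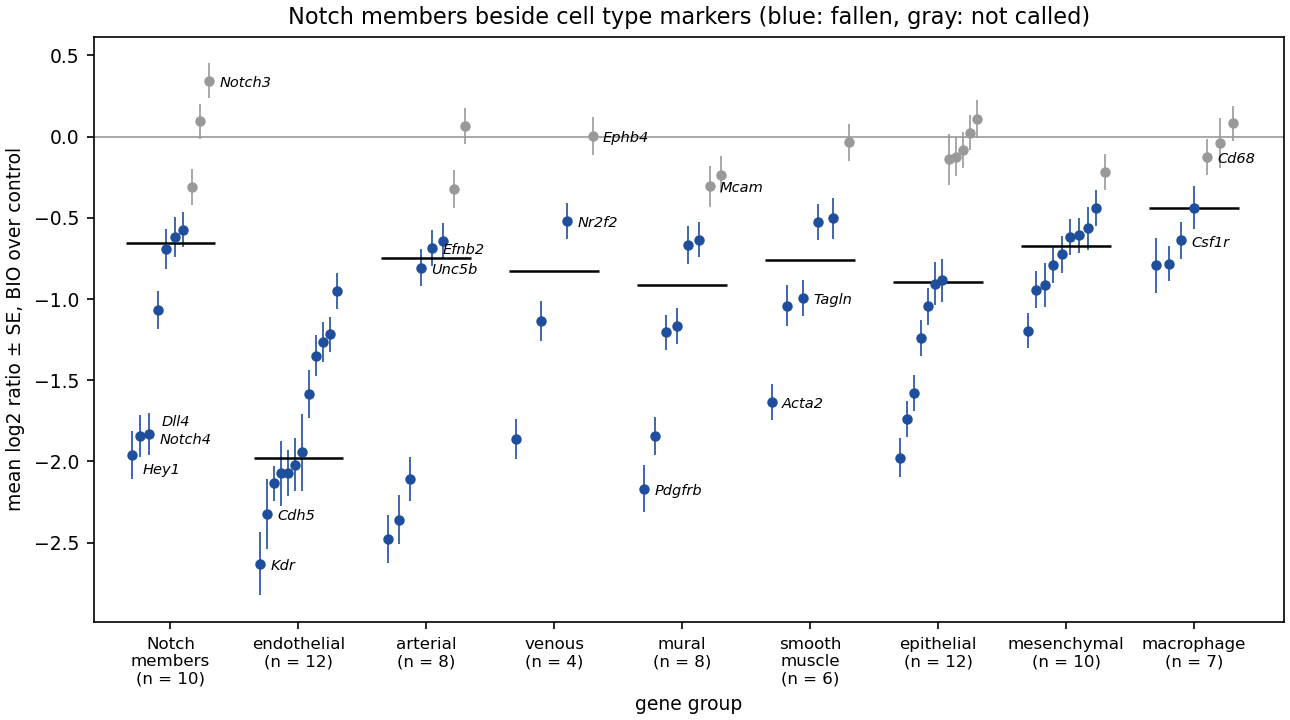
Mean log2 ratio of BIO over control ± moderated SE (n = 2 arrays), each gene by its brightest probe. Shown are the 10 Notch genes and the tested markers of 8 cell types. A black line marks the median of a list. The median is -0.65 for the Notch genes, -1.98 for endothelial and -0.92 for mural markers, and no marker is called as risen.

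Across the whole array, the WNT response was seen in all 8 WNT target genes listed, which rose with a median log2 ratio of 1.35, among them Nkd1 at 1.32 and Rnf43 at 0.81. Of the biological spots, between 70.1% and 80.9% were well above background in each channel and 0 were saturated. Replicate 1 and replicate 2 correlated in their log2 ratios with a Pearson coefficient of 0.80, computed across 28824 probes of the same 2 arrays. The median moderated SE of a log2 ratio was 0.11, and 7919 genes had an unadjusted p below 0.05.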

How the data were processed

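Gene expression was measured in ureter explants of mouse embryos on 2 Agilent 2-color arrays, each with a pool of BIO-treated and a pool of control ureters and with the dyes exchanged. The pools are separate per the study's methods, and each array counted as 1 replicate. Per the file headers, the authors extracted spot values with Agilent Feature Extraction 10.7.3.1. The deposited mean signal and local background intensity values had not been corrected, whereas the deposited processed signal intensity had been background-subtracted and dye-normalized by that software. The authors also deposited a table with 1 score per probe and array. How it was made is not given in the sources used here. Its values followed the signed fold change of BIO over control in both directions (Pearson coefficient of log2 values 0.988 and 0.982), the column median was 1 on both arrays, and its centering is unknown. All its columns of per-sample values were mapped, with 0 left unused.

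Mean intensities were corrected with limma 3.58.1 (R 4.3.3) by normexp with an offset of 50, which pulls ratios of dim probes toward 0, and log2 ratios were normalized within the array by loess. Control spots and outlier spots (3.49% and 3.16% of biological spots) had weight 0 and were left out. The spots of a probe were averaged. Probes were tested when more than a share of 0.5 of their spots exceeded the background clearly on both arrays for control, or on both for BIO. The sign of replicate 2 was turned to give BIO over control, and lmFit and eBayes tested the mean against 0, two-sided, with Benjamini-Hochberg adjustment at 0.05. The prior had 7.14 degrees of freedom. No dye term could be added with 2 arrays, and the number of arrays limits the precision. Both arrays were scanned together, so that no scan batch was present. The procedure was tested on simulated data.

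Where a gene had several probes, the brightest by mean log2 intensity over both channels and both arrays stood for it. Printed signals are the processed signals averaged over spots, and ratios and their moderated SE come from the fit. Probe positions are those of the file headers (mm9). Probes were named through RefSeq genes of GRCm38.p6 (28328 by accession, 3400 by symbol, 243 by synonym), and the file's own name was used for 7458. The fold-change rule used processed signals with a floor of 15. The 10 genes, the gene lists and the rule for naming genes were chosen with earlier results of these data known. By that rule all 10 genes are given with every probe, further pathway genes are named when called (at most 6 of the largest rises and 6 of the largest falls) or when they are Rbpj, Nrarp, Heyl, Hey2, Lfng or Mfng, and the 2 brightest markers of each list are named. Markers of 1 further list are not reported here. Alternatives were the processed signals, median centering, an offset of 16, no background subtraction, no filter, outliers kept, the deposited table, all probes averaged, separate channels, fold rules of 2 and 1.5, and each array alone. The use of the further Notch1 probe was chosen after the data were seen.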

Additional observations from a re-analysis of the deposited data

How the results depend on the processing

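The 7 genes called as fallen stayed below 0 under every alternative that gave a ratio, and 6 of them lost their call with the deposited value table alone, as did the further Notch1 probe, with adjusted p from 0.126 to 0.229. There, 1 of the 10 genes, Dll1, was called as fallen and 1, Notch3, as risen, and of the other pathway genes 4 fell and 1 rose. The share of tested probes with the same deposited score on both arrays was 22.0%, and its effect on these calls was not tested. Notch3 was also the 1 gene called as risen with all tested probes averaged and with separate channels, with its ratio unchanged at 0.34. By the fold rules, which have no test, 4 genes were lower at 2-fold and 4 at 1.5-fold. At 2-fold 2.04% of all genes tested were lower, and the share at 1.5-fold is not given here. Of the other pathway genes 6 were called as fallen with the processed signals, and 1 as risen with median centering. Shares of all genes called under these alternatives and with the deposited table are not given here. The ratio of Notch1 turned to -0.041 with median centering (adjusted p 0.97) and to -0.31 with all tested probes averaged (adjusted p 0.0559). With the further probe for Notch1, chosen after the data were seen, 8 genes fell and the median log2 ratio was -0.70. On replicate 2 alone the median was -0.52 and on replicate 1 alone -0.82, and counts of calls have no value there, since 1 array leaves no residual degree of freedom. The cause of these differences was not tested. BIO and control RNA were paired on each array, and the main fit tested the ratio within the array. The series has 1 group of arrays, so no other pairing of samples was available. Dim probes limit the further Notch2 and Maml2 probes and the untested probes of Dll1 and Hes3. Hes5, named here for its dim probe, was among the other targets that fell. Its signals were 33.6 in control and 8.95 in BIO in replicate 1, and 32.2 and 22.6 in replicate 2.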

Other observations

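Markers of the other tissues of the ureter changed as well, where 14.8% of all genes tested fell and 9.13% rose. Of 12 epithelial markers 7 fell (median log2 ratio -0.90), with the keratin genes Krt18 at -0.89 and Krt8 at -0.91. Of 10 mesenchymal markers 9 fell (median -0.67), with the collagen genes Col1a2 at -0.72 and Col1a1 at -0.44. Of 7 macrophage markers tested 4 fell (median -0.44). Csf1r, the growth factor receptor gene of macrophages, had -0.64, and Cd68 had -0.12 and was not called. All 8 cell cycle genes rose, with a median of 1.03, Mki67 at 1.06 and Pcna at 0.60.

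Some pathway genes that were not called differed in sign between the arrays, and the following were picked after their values were seen. Ncstn, which encodes the gamma-secretase subunit nicastrin, had log2 ratios of 0.16 in replicate 1 and -0.69 in replicate 2. Adam17, a protease gene, had -0.13 and 0.34. The coactivator gene Ep300 had 0.35 and -0.20.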
